A study of Mus musculus with 8 samples.

Results

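Wfdc18, Ctse, Wfdc2 and Slpi are 4 of the 32285 genes counted in single nuclei of mouse alveolar cultures in which the transcription factor Sox9 was overexpressed. They were chosen by name, as a set of secreted protease and protease inhibitor genes, with their RNA levels in nuclei of high and low Sox9 already known. Their RNA by Sox9 level is therefore given as a description. The cultures were alveolarspheres, small three-dimensional cultures without serum or feeder cells, seeded with ATII cells (type II cells of the alveolar epithelium, which make surfactant) from young and old mice. On day 9 they received an adeno-associated virus of serotype 9 carrying Sox9 together with Cre recombinase (Sox9-Cre), or Cre alone (Cre, the control), followed by 4 days in medium for differentiation toward flat type I (ATI) cells. Both groups thus carry Cre and both were sorted for the red reporter tdTomato, after which each nucleus gave a readout of RNA and one of open chromatin (ATAC). The labels name 8 samples, with 2 RNA and 2 ATAC samples of Sox9-Cre and as many of Cre.

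The RNA and ATAC counts were deposited as pooled matrices whose nuclei carry 4 library prefixes, called A to D here. The labels do not say which prefix belongs to which sample, so Sox9-Cre was not compared with Cre, nor old with young mice, and the matrix counts as 1 sample. The 7184 nuclei kept came as 1260 from library A, 760 from B, 3236 from C and 1928 from D, with medians of 9802 to 11728 UMIs (molecular barcodes, 1 for each captured RNA molecule) and 3776 to 13991.5 ATAC counts in peaks per nucleus. The share of nuclei with a Sox9 UMI was 0.952% for A, 1.32% for B, 32.9% for C and 29.8% for D. Nuclei were binned by Sox9 UMIs into 5524 with 0, 1080 with 1 or 2, 268 with 3 or 4 and 312 with 5 or more, the last bin holding 1 nucleus of A, 0 of B, 197 of C and 114 of D. Median depth went up along these bins, with 10621, 12393.5, 12933.5 and 14368 UMIs per nucleus. All intervals are exact 95% intervals that cover counting error only. No p-value is given, because nuclei are not replicates. Nuclei with 0 Sox9 UMIs still differed between libraries in ATAC counts over Sox9. Its 3 peaks were 4.99-fold higher in such nuclei of C and D than of A and B (4.25 to 5.89). The virus also carried Sox9, and its part in these counts was not tested.

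The WFDC family takes its name from the four-disulfide core, a small cysteine-rich fold shared by many secreted protease inhibitors. Wfdc18 encodes an extracellular proteinase inhibitor known from the mouse mammary gland. Wfdc2 encodes a secreted WFDC protein abundant in airway epithelium, and Slpi encodes the secretory leukocyte protease inhibitor, which blocks neutrophil elastase on mucosal surfaces. Ctse encodes cathepsin E, an aspartic protease of stomach epithelium and immune cells that is largely held in intracellular vesicles. Sox9 is a transcription factor of cartilage and of the growing tips of the embryonic lung.

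The promoters are shown because the chromatin over them differed between the genes. RefSeq (GRCm38.p6) gave the window of 250 bases before and 50 bases after the start for 3 of the 4 genes, all but Ctse. Capitals mark matches to the SOX core letters ACAAAG or ACAATG, searched on both strands (CTTTGT and CATTGT on the other). The windows are chr11:83708754-83709053 on the plus strand for Wfdc18, chr2:164356458-164356757 on the minus strand for Slpi and chr2:164562465-164562764 on the plus strand for Wfdc2, each written 5′ to 3′ on the strand of the gene.
Wfdc18: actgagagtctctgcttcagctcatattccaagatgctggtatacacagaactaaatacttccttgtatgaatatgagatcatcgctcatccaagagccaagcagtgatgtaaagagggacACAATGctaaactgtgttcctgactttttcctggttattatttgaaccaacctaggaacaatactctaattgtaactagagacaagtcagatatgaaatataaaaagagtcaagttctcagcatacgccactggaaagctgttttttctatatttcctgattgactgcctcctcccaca
Slpi: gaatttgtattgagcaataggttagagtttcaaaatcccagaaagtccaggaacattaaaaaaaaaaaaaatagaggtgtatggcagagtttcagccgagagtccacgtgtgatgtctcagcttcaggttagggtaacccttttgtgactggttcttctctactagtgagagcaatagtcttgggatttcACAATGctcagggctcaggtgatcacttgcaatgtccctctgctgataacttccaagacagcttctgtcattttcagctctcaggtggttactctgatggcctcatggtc
Wfdc2: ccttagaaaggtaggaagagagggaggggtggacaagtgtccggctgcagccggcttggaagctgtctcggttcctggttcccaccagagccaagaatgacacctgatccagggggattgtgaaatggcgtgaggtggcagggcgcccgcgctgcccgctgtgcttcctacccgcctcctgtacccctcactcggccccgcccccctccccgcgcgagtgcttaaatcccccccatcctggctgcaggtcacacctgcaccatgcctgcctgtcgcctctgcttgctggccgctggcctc
Wfdc18 and Slpi each held 1 match, to ACAATG, and Wfdc2 held 0. Of 27025 mouse promoter windows of this length, 12.8% held ACAATG, 18.7% held ACAAAG and 28.8% held either, so such a match is common and is a description of the letters only.

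Wfdc18 RNA was nearly confined to libraries C and D and was higher in each Sox9 bin than in the one before. Library C had Wfdc18 levels of 0.0246, 0.0613, 0.442 and 0.939 UMIs per 10000 UMIs in nuclei with 0, 1 or 2, 3 or 4, and 5 or more Sox9 UMIs. Library D had 0.0714, 0.322, 0.666 and 0.755 in the same bins. The order of the bins was thus the same in both libraries, although in D the intervals of the last 2 bins overlapped (0.538 to 0.817 and 0.633 to 0.895). Libraries A and B had 0 Wfdc18 UMIs in 1260 and 760 nuclei. Among nuclei with 0 Sox9 UMIs, the level in C and D was 33.1-fold that in A and B, counting the 0 UMIs of A and B together as 3. The lower bound of the exact interval was 26.6-fold. The ratio of nuclei with 5 or more Sox9 UMIs to nuclei with 0 was 30.9-fold over all libraries (25.9 to 37.0), 38.1-fold in C (28.9 to 51.0) and 10.6-fold in D (8.21 to 13.7). It was 72.3-fold over the libraries without D.

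A Wfdc18 UMI was found in 24.7% of nuclei with 5 or more Sox9 UMIs (20.0 to 29.9) and in 1.12% of nuclei with 0 (0.862 to 1.44). With every nucleus thinned to 5000 UMIs the shares were 17.3% and 0.636%. With the Sox9 bins also taken from the thinned count, the ratio of levels was 15.5 (10.6 to 22.1). ATII-like nuclei with 0 Sox9 UMIs had a Wfdc18 UMI in 0.944% (0.489 to 1.64), at a median of 11838 UMIs. They are part of the same bin, so their share is not a separate measure of background. The 1.12% joins 1.75% in C and 1.77% in D with 0 in A and B. Of the 182 Wfdc18 UMIs in nuclei with 0 Sox9 UMIs, 96 were in airway nuclei and 36 in cluster 8, both described below. RNA from outside the nucleus was not estimated. The signal sat in few nuclei. Of 1019 Wfdc18 UMIs, 37.8% came from 10 nuclei, the richest with 55 UMIs, and 116 of the 214 positive nuclei had 1 UMI. Within the high bin the Wfdc18 level was 0.910 at 5 to 9 Sox9 UMIs, 0.925 at 10 to 19 and 0.607 at 20 or more (0.443 to 0.813). The share of nuclei with a Wfdc18 UMI was 23.4%, 17.2% and 46.3% (30.7 to 62.6) in the same order. Level and share thus differed in order, and the richest nucleus had 55, 47 and 6 UMIs.

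Ctse RNA was low in nuclei with up to 4 Sox9 UMIs and high in those with 5 or more. Library C had Ctse levels of 0.0179, 0.0361, 0.112 and 0.695 UMIs per 10000 UMIs along the 4 bins. Library D had 0.0226, 0.0596, 0.107 and 0.953. The step into the last bin was the largest in both libraries. Nuclei with 0 Sox9 UMIs of libraries A and B held 15 and 12 Ctse UMIs, in 14 and 11 nuclei, at levels of 0.0113 and 0.0126. RNA from outside the nucleus can give such single UMIs and was not estimated, so these are not read as expression. The ratio of nuclei with 5 or more Sox9 UMIs to nuclei with 0 was 46.5-fold (37.5 to 58.0), with 38.9-fold in C and 42.2-fold in D. A Ctse UMI was found in 19.2% of nuclei with 5 or more Sox9 UMIs (15 to 24.0) and in 1.65% of nuclei with 0 (1.33 to 2.02). Within the high bin the Ctse level was 0.528 at 5 to 9 Sox9 UMIs (0.445 to 0.623), 1.1 at 10 to 19 (0.931 to 1.29) and 1.15 at 20 or more (0.916 to 1.42).

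Wfdc2 and Slpi went the other way, and neither is ectopic in these nuclei in the sense of being absent without Sox9. Wfdc2 levels were 15.3, 13.3, 11.6 and 7.09 UMIs per 10000 UMIs along the Sox9 bins in library C. They were 19.1, 17.6, 14.3 and 8.26 in library D. Each bin was lower than the one before in both libraries, with no overlap of neighbouring intervals. In nuclei with 0 Sox9 UMIs, Wfdc2 stood at 15.4 in A and 17.1 in B, within the range of C and D. The ratio of nuclei with 5 or more Sox9 UMIs to nuclei with 0 was 0.455 (0.440 to 0.470), with 0.464 in C and 0.433 in D.

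Slpi levels were 0.550, 0.416, 0.370 and 0.164 UMIs per 10000 UMIs along the Sox9 bins in library C. They were 0.610, 0.547, 0.494 and 0.310 in library D. Neighbouring middle bins overlapped in their intervals, while the last bin lay below the first in both libraries. Nuclei with 0 Sox9 UMIs had 0.381 in A and 0.402 in B. The ratio of nuclei with 5 or more Sox9 UMIs to nuclei with 0 was 0.431 (0.351 to 0.524), with 0.297 in C (0.219 to 0.395) and 0.508 in D (0.380 to 0.667). Without library C it was 0.647. At 20 or more Sox9 UMIs only 2 Slpi UMIs were counted in 41 nuclei.

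**Figure D1:**
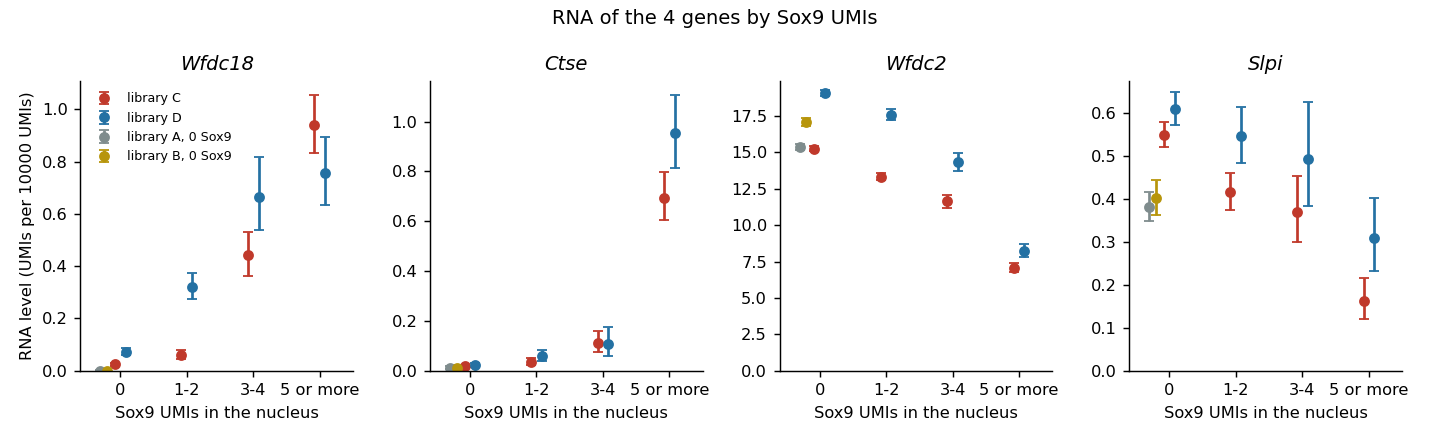
RNA level of each gene (UMIs per 10000 UMIs, own axis per gene) by Sox9 UMIs in the nucleus. Points are libraries summed over their nuclei and bars are exact 95% Poisson intervals. A and B are drawn for 0 Sox9 UMIs, where nearly all their nuclei lie. Wfdc18 and Ctse were higher in nuclei with 5 or more Sox9 UMIs than in nuclei with 0 in C and D, and Wfdc2 and Slpi were lower.

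Of 15788 genes with at least 30 UMIs in both bins together, 7.05% were at least 2-fold higher in nuclei with 5 or more Sox9 UMIs and 4.85% at least 2-fold lower. Wfdc18 and Ctse were among the higher genes, at ranks 27 and 19 by fold, and Wfdc2 and Slpi among the lower ones. Nothing is read from these counts, since the genes were listed with this contrast known. The genes with the largest ratios among those found in at least 20% of the high nuclei were Lama4 (94.5-fold), a laminin chain, Col27a1 (58.5-fold), a fibrillar collagen, Plat (45.3-fold), the tissue plasminogen activator, Jam2 (35.6-fold), a junction protein, and Wfdc18 itself.

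Accessibility, which was not used to list the genes, differed between Wfdc18 and Ctse. In ATAC data a peak is a stretch where the transposase cut often, and levels are counts per 10000 counts in peaks. Over all peaks tested, 9.05% were at least 2-fold higher in nuclei with 5 or more Sox9 UMIs and 5.5% at least 2-fold lower. Wfdc18 had 1 peak over the gene and its flanks of 2000 bp, at chr11:83708441-83709344, which contains the whole promoter window printed above. Its level was 0.145 in nuclei with 5 or more Sox9 UMIs and 0.00593 in nuclei with 0 in library C, from 39 and 13 counts. In library D it was 0.175 and 0.00449 for the same groups, from 38 and 9 counts. The middle bins had 0.0254 and 0.0192 in C, from 20 and 4 counts, and 0.0172 and 0.0820 in D, from 10 and 13. Over all libraries the 4 bins had 0.00508, 0.0216, 0.0463 and 0.158, with each interval above the one of the bin before except between the middle bins. The peak was 31.2-fold higher in nuclei with 5 or more Sox9 UMIs than in nuclei with 0 (20.1 to 49.6), 24.4-fold in C and 39.1-fold in D, which placed it at rank 17 of 109409 peaks. A cut in the peak was found in 19.2% of nuclei with 5 or more Sox9 UMIs and 0.471% of nuclei with 0. Among nuclei with 0 Sox9 UMIs, the peak in C and D was 1.13-fold that in A and B (0.468 to 3.14), from 22 and 7 counts. Cluster 8, a group of nuclei described below, made up 56.7% of the last bin and 1.03% of nuclei with 0 Sox9 UMIs. The peak level was 0.164 in cluster 8 (0.131 to 0.203), from 85 counts, and 0.00177 to 0.0351 in the other groups. The 31.2-fold ratio was not taken inside or without that cluster, so it does not separate Sox9 level from membership in it.

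Ctse had 3 peaks over the gene (chr1:131638314-131675507), and none changed in proportion to its RNA. The peak over the lower-numbered gene end (chr1:131638038-131638938) had a level of 0.0247 in nuclei with 5 or more Sox9 UMIs and 0.0319 in nuclei with 0, a ratio of 0.774 (0.393 to 1.39) from 12 and 182 counts. The peak at chr1:131657752-131658692 had a ratio of 1.37 (1.04 to 1.77). The peak at chr1:131661367-131662180 had 2.14 (1.43 to 3.12), with 2.06 in C and 1.90 in D. Summed, the 3 peaks gave 1.40 (1.14 to 1.71), with 1.46 in C and 1.2 in D, and in D the interval (0.867 to 1.63) included 1. They were open at similar levels in nuclei without Sox9 UMIs of A and B and of C and D, at 1.23-fold higher in C and D (1.05 to 1.44).

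The peaks of Wfdc2 and Slpi differed less between the bins than their RNA. The peak over the start of Wfdc2 (chr2:164562139-164563046) had a ratio of 0.734 between nuclei with 5 or more and 0 Sox9 UMIs (0.570 to 0.932), and the peak next to it inside the gene (chr2:164563350-164564258) had 1.19 (0.960 to 1.46). The sum of both was 0.946 (0.806 to 1.1). Slpi had 1 peak, over its start (chr2:164356045-164357053), with a ratio of 0.831 (0.614 to 1.1), 0.829 in C and 0.769 in D. The Slpi interval includes 1, and its lower bound lies above the ratio of the Slpi RNA.

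**Figure D2:**
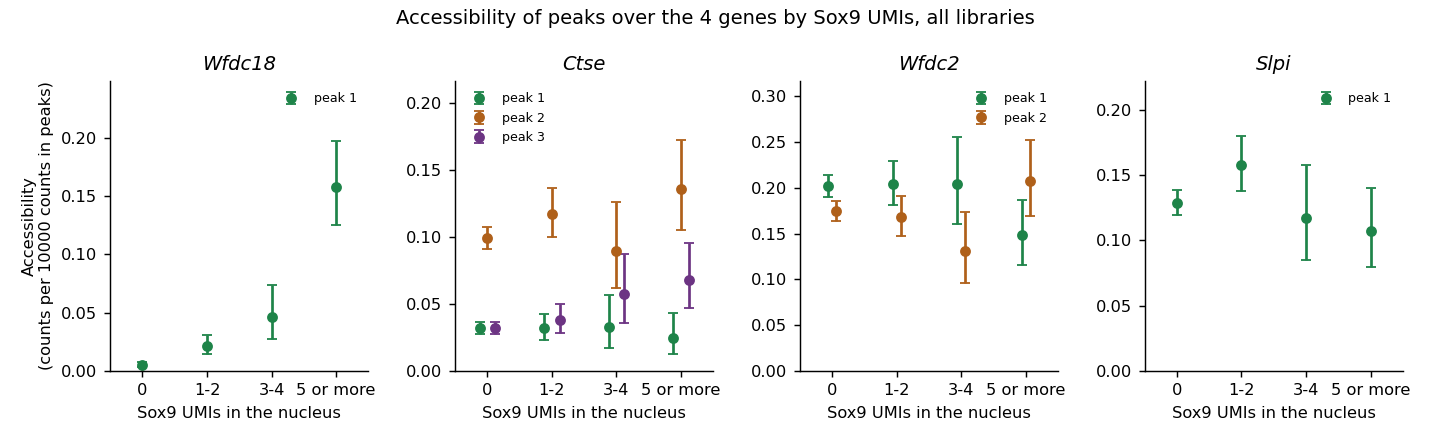
Accessibility of each peak over the 4 genes (counts per 10000 counts in peaks, own axis per gene) by Sox9 UMIs in the nucleus, over all libraries. Peaks are numbered along the chromosome and bars are exact 95% Poisson intervals. The Wfdc18 peak was at 0.158 in nuclei with 5 or more Sox9 UMIs and 0.00508 in nuclei with 0, while the other peaks stayed within 0.734 to 2.14 times their level without Sox9 UMIs in the last bin.

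The neighbourhood of Wfdc18 did not move as a block. Of 11 peaks tested within 100 kb, 3 were at least 2-fold higher in nuclei with 5 or more Sox9 UMIs, and 0 at least 2-fold lower. Over all peaks tested, 9.05% were higher and 5.5% lower by that measure. Beside the start peak, a peak centred at -71678 bp from the gene start was 3.91-fold higher (3.06 to 4.97). One at 95857 bp was 4.59-fold higher (3.45 to 6.06). The neighbouring WFDC genes differed from Wfdc18. Wfdc17, 2735 bp away, had 0 UMIs in both bins, and Wfdc21 had 4 UMIs against 47, a ratio of 1.15 (0.301 to 3.16). Heatr6 had a ratio of 1.11. Within 100 kb of Ctse, 7 of 31 peaks were at least 2-fold higher and 1 lower. The counts were 0 higher and 1 lower of 21 peaks around Wfdc2, and 2 and 0 of 30 around Slpi. The largest ratio around Ctse was 3.5-fold (2.70 to 4.51), at a peak 113944 bp to the right of the lower-numbered gene end. That peak lies inside the neighbour Slc26a9, a chloride transporter of airway and stomach epithelium. Slc26a9 RNA had a ratio of 0.553 (0.487 to 0.627).

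**Figure D3:**
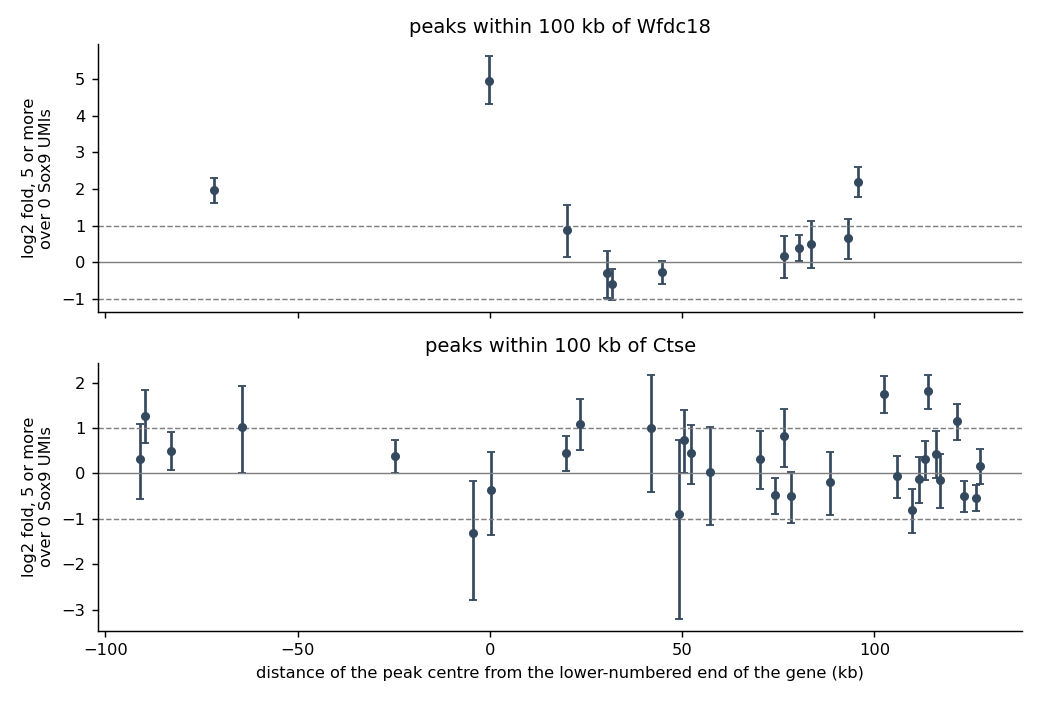
Log2 ratio of accessibility between nuclei with 5 or more and 0 Sox9 UMIs for each tested peak within 100 kb of Wfdc18 (above) and Ctse (below), by distance of the peak centre from the lower-numbered gene end. Bars are exact 95% intervals and dashed lines mark 2-fold. The Wfdc18 start peak stood at 31.2-fold and the 3 peaks over Ctse at 0.774 to 2.14.

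The Wfdc18 peak was higher in nuclei with a Wfdc18 UMI than in nuclei without one. Among nuclei with 5 or more Sox9 UMIs, the peak level was 0.330 in the 77 nuclei with a Wfdc18 UMI and 0.107 in the 235 without one, a ratio of 3.08 (1.92 to 4.95). It was 2.36 in C (1.16 to 4.66) and 4.03 in D (2.03 to 8.14). Summed Sox9 RNA of these sets was 9.94 and 8.96 UMIs per 10000 UMIs, and 9.90 and 8.60 in D. The set without a Wfdc18 UMI holds 1 nucleus of C with 449 of the 4400 Sox9 UMIs of the bin. Among nuclei of C and D with 1 to 4 Sox9 UMIs the ratio was 7.96 (4.01 to 15.1), and among those with 0 it was 17.7 (5.66 to 47.5) from 6 and 16 counts. Cluster 8, described below, held 70 of the 77 Wfdc18-positive nuclei with 5 or more Sox9 UMIs. The ratios were not taken inside that cluster, so they do not separate a link within nuclei from shared membership in it. For Ctse the same ratio in nuclei with 5 or more Sox9 UMIs was 1.45 (0.907 to 2.24), with 1.78 in C and 0.941 in D. Here the Ctse-positive nuclei also had more Sox9 RNA, at 15.4 against 7.58 UMIs per 10000 UMIs, and 11.8 against 8.19 in D. The nucleus with 449 Sox9 UMIs had 1 Ctse UMI and counts among the Ctse-positive ones. The Slpi peak was 2.06-fold higher in nuclei with a Slpi UMI than in nuclei without one (1.74 to 2.45) among the nuclei of C and D with 0 Sox9 UMIs. In nuclei with 5 or more Sox9 UMIs it was 1.46-fold (0.675 to 2.89).

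Wfdc18 and Ctse were often found in the same nuclei. Of 312 nuclei with 5 or more Sox9 UMIs, 77 had a Wfdc18 UMI, 60 a Ctse UMI and 32 both, where the product of both shares gives 14.8, a ratio of 2.16. Library C had 22 such nuclei against 10.6 from the product, and library D 10 against 4.39. The overlap was 41.6% of the Wfdc18-positive nuclei (30.4 to 53.4) and 53.3% of the Ctse-positive ones (40.0 to 66.3). Most nuclei of the bin had neither gene, and 45 of the 77 Wfdc18-positive nuclei lacked a Ctse UMI. Cluster 8, described below, held 177 nuclei of the bin, with 70 of the 77 Wfdc18-positive and 52 of the 60 Ctse-positive ones. The product was not taken inside that cluster, so the ratio of 2.16 does not separate co-detection from shared membership in it. At 0 Sox9 UMIs 4 nuclei had both, against 1.02 from the product. Nuclei with a UMI of either gene were deeper than the rest, with medians of 12253.5 UMIs for Wfdc18-positive and 14812 for Ctse-positive nuclei, against 11058 and 11009 for nuclei without. With at least 2 UMIs of each gene required, 17 nuclei of the bin had both, against 5.75 from the product. With every nucleus thinned to 5000 UMIs the ratio was 1.93 (1.04 to 3.25). Wfdc18 and Slpi were found together in 5 nuclei with 5 or more Sox9 UMIs, against 12.1 from the product.

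**Figure D4:**
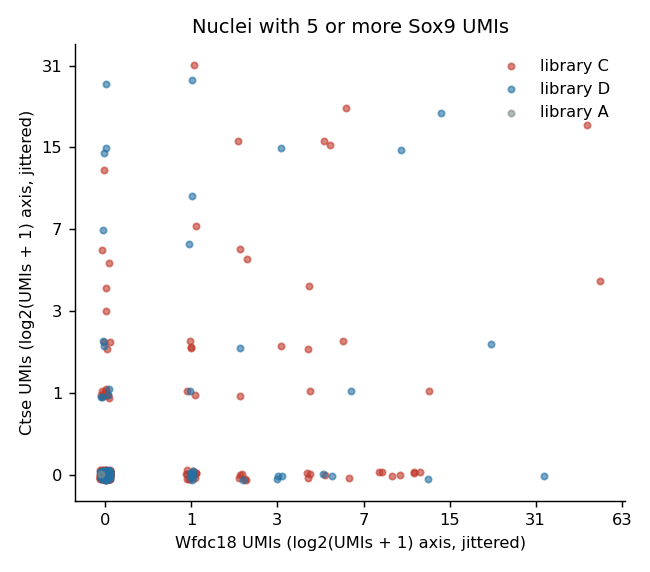
Wfdc18 UMIs (horizontal) and Ctse UMIs (vertical) in each of the 312 nuclei with 5 or more Sox9 UMIs, on log2(UMIs + 1) axes with jitter, coloured by library. The 32 nuclei off both axes hold both RNAs, and most nuclei sit at 0 for both.

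Both genes were concentrated in 1 cluster of nuclei, cluster 8, which was built without the 4 genes, Sox9, Cre and tdTomato. Its leading genes include Lama4, Col9a3, Col27a1 and Sox6. No cell type marker list named it, and it is called by its number. The list of cartilage genes, which holds Col9a3, Col27a1 and Sox6, was not used for naming. It held 398 nuclei (7 of A, 6 of B, 256 of C and 129 of D) and 56.7% of all nuclei with 5 or more Sox9 UMIs. It also held 74.6% of all Wfdc18 UMIs and 67.1% of all Ctse UMIs. The Wfdc18 level was 1.56 in cluster 8, 0.417 in airway secretory-like nuclei, 0.0346 in transitional-like nuclei (named for keratin and claudin genes of cells between ATII and ATI), 0.0109 in ATI-like and 0.00771 in ATII-like nuclei. The Ctse level was 0.820, 0.106, 0.0464, 0.0109 and 0.00726 in the same order. The intervals of the ATI-like and ATII-like nuclei overlapped for both genes.

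Inside cluster 8 both genes had higher levels in nuclei with 5 or more Sox9 UMIs than in nuclei with 0. Wfdc18 was already at 0.646 UMIs per 10000 UMIs in nuclei of cluster 8 with 0 Sox9 UMIs (0.453 to 0.895, 36 UMIs in 57 nuclei). It had 1.52, 2.30 and 1.58 in the bins above. Ctse had 0.0718 at 0 Sox9 UMIs, from 4 UMIs in 1 nucleus, then 0.261, 0.387 and 1.37. The ratio of nuclei with 5 or more Sox9 UMIs to nuclei with 0 inside cluster 8 was 1.83 for Wfdc18 in C (1.25 to 2.79) and 2.01 in D (0.946 to 5.12). For Ctse it was 9.40 in C (3.61 to 34.8), and in D 145 UMIs in 58 nuclei stood against 0 in 10. Whether the Ctse and Wfdc18 ratios differ was not tested.

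In ATII-like and transitional-like nuclei with 5 or more Sox9 UMIs both genes were at lower levels than in cluster 8 nuclei of that bin, and their UMIs sat in few nuclei. Transitional-like nuclei with 5 or more Sox9 UMIs had 20 Wfdc18 UMIs in 5 of 55 nuclei, 14 in the richest, with 2 of the UMIs in C and 18 in D, against 14 UMIs in 1444 nuclei with 0 Sox9 UMIs. ATII-like nuclei with 5 or more Sox9 UMIs had 0 Wfdc18 UMIs in 41 nuclei. The exact interval allows a level of up to 0.0459, against 0.00873 in those with 0 Sox9 UMIs. That limit lies well below the 1.58 of cluster 8 in the same bin. For Ctse, transitional-like nuclei had 23 UMIs against 55, an 8.83-fold ratio (5.18 to 14.6). These 23 UMIs lay in 3 of 55 nuclei, 20 of them in 1 nucleus, and 21 were in D and 2 in C. The share of nuclei with a Ctse UMI was 5.45% (1.14 to 15.1) against 3.05%, so the ratio rests on that nucleus. ATII-like nuclei had 8 Ctse UMIs against 5, a 31.9-fold ratio (9.20 to 124). The 8 lay in 3 of 41 nuclei, 6 in 1 nucleus, with 7 in C and 1 in D. At 0 Sox9 UMIs a Ctse UMI was found in 10.3% of airway nuclei, 3.05% of transitional-like and 1.75% of cluster 8 nuclei. With cluster 8 left out, the ratio of nuclei with 5 or more Sox9 UMIs to nuclei with 0 was 4.94 for Wfdc18 and 10.2 for Ctse.

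Wfdc2 was lower in nuclei with 5 or more Sox9 UMIs inside each of these groups. In ATII-like nuclei its level was 10.9 in the bin with 5 or more Sox9 UMIs and 15 in the bin with 0, a ratio of 0.723 (0.675 to 0.774). In transitional-like nuclei it was 7.99 and 14.8, a ratio of 0.539 (0.498 to 0.581). Inside cluster 8 the ratio was 0.363 in C and 0.327 in D. The pooled ratio of 0.205 there also sets in nuclei of A and B, where Wfdc2 was higher. For Slpi the ratio was 0.764 in ATII-like nuclei (0.570 to 1.01) and 0.535 in transitional-like nuclei (0.320 to 0.841). In transitional-like nuclei it was 0.217 in C (0.0790 to 0.477) and 0.713 in D (0.363 to 1.27), and the interval of D included 1. Without cluster 8 the ratios over all other nuclei were 0.614 for Wfdc2 and 0.788 for Slpi.

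**Figure D5:**
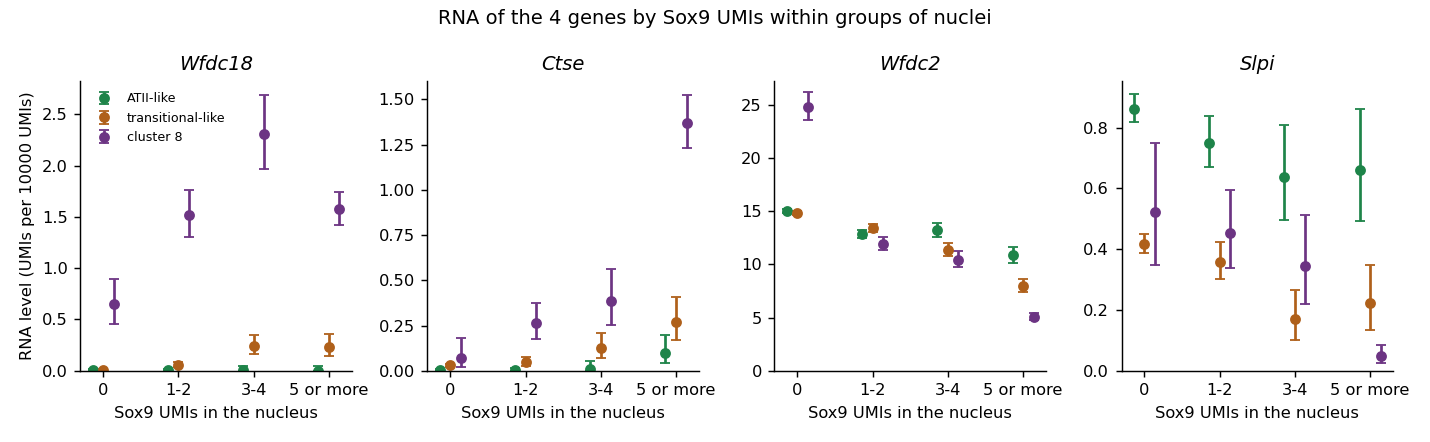
RNA level of each gene (UMIs per 10000 UMIs, own axis per gene) by Sox9 UMIs in ATII-like nuclei, transitional-like nuclei and cluster 8, over all libraries, with exact 95% Poisson intervals. Wfdc18 was at 0.646 in cluster 8 without Sox9 UMIs and at 0 of 41 ATII-like nuclei with 5 or more; Ctse in cluster 8 went up to 1.37 in the last bin. The cluster 8 points at 0 Sox9 UMIs include nuclei of A and B.

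Airway nuclei were rich in Wfdc2 and Slpi. The airway secretory-like cluster held 191 nuclei, 90 of C and 101 of D, supported by 22 of 24 airway secretory markers. Of 16500 genes set against the remaining nuclei, 12.9% were 2-fold higher or more in this cluster and 7.27% were 2-fold lower or more. Wfdc2 had a level of 57.2 in airway nuclei and 14.1 in all others, a ratio of 4.05 (3.98 to 4.11), with 3.87 in C and 4.37 in D. Slpi had 1.22 and 0.456, a ratio of 2.67 (2.39 to 2.97), with 2.57 in C and 2.41 in D. A Wfdc2 UMI was found in 99.5% of airway nuclei and in 89.0% of ATI-like nuclei, so detection alone separates little. A Slpi UMI was found in 49.7% of airway nuclei, 39.3% of ATII-like and 7.38% of ATI-like nuclei. The peaks over both genes differed little between airway and other nuclei, with ratios of 1.18 for Wfdc2 (0.955 to 1.44) and 1.23 for Slpi (0.862 to 1.71). In ciliated-like nuclei, separated at a finer clustering as 22 nuclei, the Wfdc2 level was 53.4, and Slpi had 6 UMIs.

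Wfdc18 in airway nuclei rested on a few nuclei of 1 library. Its level was 0.417 in airway nuclei and 0.105 in all others, a ratio of 3.97 (3.27 to 4.79). It was 4.03 in D (3.25 to 4.96) but 0.480 in C (0.206 to 0.953), from 118 and 8 UMIs. Without library D it was 0.770, and without library C it was 8.05. A set of 10 nuclei held 95.2% of the 126 UMIs, 8 of these nuclei were in D, and 5 had a Sox9 UMI. The summed airway marker level of these nuclei was 383 UMIs per 10000 UMIs, against 633 in all airway nuclei and 6.67 in other nuclei. The Wfdc18 peak in airway nuclei had 4 counts, a ratio of 0.904 to other nuclei (0.243 to 2.36). Of the 182 Wfdc18 UMIs in nuclei with 0 Sox9 UMIs, 96 were in airway nuclei and 36 in cluster 8. Without airway nuclei the Wfdc18 ratio between nuclei with 5 or more and 0 Sox9 UMIs was 62.7 (49.5 to 80.0). Ctse had 32 UMIs in airway nuclei, a ratio of 1.60 (1.08 to 2.28), with 1.94 in C and 0.726 in D. That ratio was 2.83 without library D and 0.572 with a coarser clustering, so no direction is given for Ctse in airway nuclei.

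Markers of other cell types moved in several ways along the Sox9 bins. Of all genes tested, 7.05% were at least 2-fold higher and 4.85% at least 2-fold lower in the last bin than in the first. The summed level of the airway secretory markers was 27.8, 39.2, 21.4 and 5.58 UMIs per 10000 UMIs along the bins, with 30.1, 21.9, 6.61 and 5.90 in library C and 54.4, 73.1, 47.9 and 5.06 in library D. It was thus highest at 1 or 2 Sox9 UMIs in D and lowest in the last bin of both libraries. Nuclei with a Wfdc18 UMI had 56.9, against 35.3 in nuclei of C and D without one, and the part of airway RNA in the Wfdc18 levels of the lower bins was not tested. Of 22 airway secretory markers tested, 0 were at least 2-fold higher in nuclei with 5 or more Sox9 UMIs and 15 at least 2-fold lower than in nuclei with 0, with Muc5b, Tff2 and Chil4 at 0. Airway nuclei made up 0.641% of the nuclei with 5 or more Sox9 UMIs and 2.62% of those with 0. Ciliated markers summed to 1.62, 3.20, 1.05 and 1.17 along the bins. Of 20 ciliated markers 0 were higher and 13 lower in the last bin, and of 5 immune markers tested 0 were either, with Ptprc at 0 in the high bin. Of 6 mesenchymal and endothelial markers tested, Acta2, Dcn, Pecam1 and Tek were higher and Col1a1 was lower, at summed levels of 0.153 against 0.0742, with Col1a2, Col3a1 and Cdh5 at 0. Transitional markers summed to 188 against 132, with 3 of 22 higher and 2 lower, and ATI markers to 66.4 against 147, with 0 of 25 higher and 14 lower. ATII markers were lower in sum, at 318 against 594, with 5 of 22 at least 2-fold lower, among them Sftpc (0.489). Cartilage genes were higher for 9 of 12 tested, with a median log2 ratio of 4.23, against 0.01 over all genes.

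Other WFDC genes and cathepsins moved in different directions. The counts below include Wfdc18, Wfdc2, Slpi and Ctse, which were listed with this contrast known. The shares over all genes tested were 7.05% at least 2-fold higher and 4.85% at least 2-fold lower. Of 7 WFDC genes with enough UMIs, Wfdc18 and Wfdc3 (2.32-fold, 12 UMIs against 70) were at least 2-fold higher in nuclei with 5 or more Sox9 UMIs. Wfdc2 and Slpi were at least 2-fold lower. The median log2 ratio was -0.35, which is the value of Wfikkn1 with its 2 UMIs counted as 3. Of the WFDC genes not chosen, only Wfdc3 passed 2-fold. Wfdc1 had a ratio of 0.536, Wfdc21 1.15 and Wfikkn1 0.782. Of 15 aspartic proteases and cathepsins, Ctse, Ctsl (2.17-fold), a lysosomal cysteine protease, and Pgc (2.09-fold, 12 UMIs against 78), the precursor of a stomach pepsin, were higher. Napsa, the aspartic protease that processes surfactant protein B, was lower at 0.458, and the median was 0.05. Ctsd, the lysosomal cathepsin D, had 1.28. Among 18 other protease inhibitors 5 were higher and 2 lower, the highest being Serpina3n with 200 UMIs against 4. Of 11 stomach and gut genes tested 3 were higher, among them Gkn3 (15-fold, 21 UMIs against 19) and Vsig1 (15.7-fold, 22 against 19). Another 4 were lower, among them Cldn18, a claudin of lung and stomach, at 0.260.

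The genes whose RNA followed Wfdc18 most closely over the 7184 nuclei, out of 13934 genes, were Lama4 (Pearson r 0.408), Slc5a8 (0.381), Fxyd3 (0.365), Col27a1 (0.361) and Sox6 (0.338). Ctse came at rank 7 (0.311) and Sox9 at rank 12 (0.261). For Ctse they were Col9a3 (0.435), Col2a1 (0.366), Col27a1 (0.326), Wfdc18 (0.311) and Tppp (0.310). The order held in part inside libraries, where the r of Ctse with Col2a1 was 0.203 in C and 0.588 in D. For Wfdc2 the closest was Bsg (0.420) and for Slpi the surfactant protein gene Sftpd (0.315). The nuclei share libraries and differ in depth, and most counts are 0, so these values are descriptions.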

How the data were processed

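RNA and open chromatin were measured in the same nuclei by a multiome assay. The tools listed in the submitters' processing notes are Signac 1.10.0, Seurat 4.3.0 and Cell Ranger 6.0.1, with builds mm10 and GRCm38. For the peak caller, and for any filter on nuclei, no name was found, and it is not given in the sources used. The authors deposited raw counts of UMIs per gene and of ATAC counts per peak, for 7224 nuclei, 32285 genes and 116068 peaks, pooled over libraries.

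Nuclei with at least 500 UMIs, 300 genes and under 20% mitochondrial UMIs were kept (7199), and 15 called doublets (0.208% of these) were removed. That caller marked so few that doublets are in effect not removed. Of the barcode sequences, 20 occurred in 2 or more libraries. Counts were summed over nuclei and divided by the summed total, times 10000. Levels have exact Poisson, shares Clopper-Pearson and ratios exact conditional binomial intervals, at 95%. A count below 3 on either side of a ratio was set to 3 for the ratio, but not for its interval. Genes and peaks with at least 30 counts in both groups together were compared, with a 2-fold threshold. Clusters came from 2000 variable genes, 30 principal components, 15 neighbours and Leiden resolution 0.8 (scanpy 1.11.5, leidenalg 0.10.2, Python 3.11.15), without the 4 genes, Sox9, Cre and tdTomato, and were named only from marker lists. Named genes are the 4 members, list genes, the 5 genes with the most similar RNA and the 5 with the largest ratios. The calculations were tested on simulated data. The members and lists were chosen with earlier results of these data known. The planned edgeR comparison of Sox9-Cre with Cre was not run, because no label ties barcodes to samples. Depth of 9735964 to 39802631 UMIs per library limits the precision of rare genes. Alternatives tried include thinning, other bins and clusterings, and leaving out each library.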

Additional observations from a re-analysis of the deposited data

How the results depend on the processing

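Of 130 alternative values, 87 counted as the same, 42 moved and 1 turned round. A ratio counted as the same when it stayed within the interval of the reported one. The count of 1113 genes has no interval, so its alternatives were judged by a fixed fold of that count. A value counted as turned round only where the reported ratio was at least 2-fold in either direction. The airway ratio of Ctse (1.60) was not, so its values of 0.996, 0.572 and 0.787 given below count as moved. Leaving out each library in turn gave ratios between nuclei with 5 or more and 0 Sox9 UMIs of 24.7 to 72.3 for Wfdc18 RNA, 42.9 to 57.6 for Ctse, 0.447 to 0.476 for Wfdc2 and 0.350 to 0.647 for Slpi. The airway ratios then ranged over 0.770 to 8.05 for Wfdc18, which turned round at 0.770 without library D, 1.29 to 2.83 for Ctse, 3.52 to 4.16 for Wfdc2 and 2.59 to 2.74 for Slpi. With nuclei thinned to 5000 UMIs the Ctse ratio was 60.0, and with bins also taken from the thinned Sox9 count the ratios were 15.5 for Wfdc18, 59.9 for Ctse, 0.346 for Wfdc2 and 0.253 for Slpi. Bins of Sox9 per 10000 UMIs gave 62.3 for Ctse, 0.381 for Wfdc2 and 0.279 for Slpi, and a mean of levels per nucleus gave 0.439 for Wfdc2. Without airway nuclei the ratio was 62.7 for Wfdc18 and 0.498 for Wfdc2. Without cluster 8, an alternative chosen after seeing the data, it was 4.94 for Wfdc18, 10.2 for Ctse, 0.614 for Wfdc2 and 0.788 for Slpi. For airway nuclei, keeping the 4 genes in the clustering gave 3.25 for Wfdc18, 0.996 for Ctse and 4.22 for Wfdc2. Resolution 0.4 gave 2.70 for Wfdc18, 0.572 for Ctse, 4.44 for Wfdc2 and 2.98 for Slpi, and resolution 1.2 gave 3.10 for Slpi. Scaled genes, also chosen after seeing the data, gave 0.787 for Ctse and 4.35 for Wfdc2. Taking all nuclei with at least 10 airway marker UMIs gave 1.48 for Wfdc18, 1.62 for Wfdc2 and 2.08 for Slpi. The count of 1113 genes at least 2-fold higher was 1686 with no filter on low counts and 290 at a fold of 4. The cause of these shifts was not tested. No paired analysis was possible because the library prefixes carry no replicate number and no test was run. The 4 libraries are pooled and unlabelled, so intervals cover counting error only, and the levels of Wfdc18 and Ctse rest on 214 and 205 positive nuclei.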
